A study of Mus musculus with 26 samples.

Results

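Car2, Car3, Car4, Car8, Car12 and Car14 are 6 mouse carbonic anhydrase genes chosen by symbol, and all 6 had a row among the 16426 genes of the unique molecular identifier (UMI) count tables of this study. RPE/choroid, the retinal pigment epithelium with the vascular layer beneath it, was profiled by single-cell RNA sequencing (scRNAseq) in 1 library of 3-month-old B6129PF1/J mice and 1 of 3-month-old C57BL/6J mice, each made from pooled eyes of both sexes. Bulk expression was given as average FPKM (fragments scaled to transcript length and to the mapped fragments of a library). It was given for RPE/choroid of 6-month-old C57BL/6J mice, Ihh+/+ or IhhiΔEC/ΔiEC, 3 libraries each. It was also given for cultured choroidal GLI1+ cells of Gli1GFP/+ mice, kept for 24 h in DMSO or in 100 nM SAG, 3 libraries each. The authors report that this reporter line, generated in SWR/J mice, was outcrossed with BALB/c mice and intercrossed before use. In the IhhiΔEC/ΔiEC mice Ihh was deleted by a tamoxifen-inducible Cre under the Cdh5 promoter, which is active in endothelial cells (ECs); the Ihh+/+ littermates carried the same Cre, and both genotypes had received tamoxifen 12 weeks earlier. The GLI1+ cells had been sorted by their GFP and expanded in culture, so they are a model without their tissue. SAG is a small molecule that turns on Hedgehog signaling through Smoothened. A last table listed genes enriched in choroidal ECs, beside ECs sorted from neural retina, lung, liver and heart of 1-month-old B6129PF1/J mice, 3 libraries each.

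Carbonic anhydrases catalyze the interconversion of carbon dioxide and water with bicarbonate and protons. Car2 and Car3 are cytosolic, Car4 is held on the outer cell surface by a lipid anchor, and Car12 and Car14 span the membrane with the catalytic domain outside the cell. Car8 is a carbonic anhydrase-related protein that has lost the zinc-binding residue needed for catalysis. In the back of the eye these enzymes are known for their part in moving the carbon dioxide, lactate and water of the photoreceptors across the RPE to the choroidal blood, and inhibitors of the family are used in the clinic to lower eye pressure and to clear retinal fluid.

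On GRCm38 with GENCODE vM21, Car3 (chromosome 3, 14863512 to 14872523, plus strand) and Car2 (chromosome 3, 14886273 to 14900770, plus strand) are neighbors. Car14 lies on the minus strand of the same chromosome (95897768 to 95904691) and overlaps Aph1a, a protein-coding gene of the opposite strand. Car4 is on chromosome 11 (84957786 to 84966044, plus strand), Car8 on chromosome 4 (8143362 to 8239041, minus strand) and Car12 on chromosome 9 (66713686 to 66766845, plus strand). Whether the counting used strand is not given in the sources used here, so Car14 and Aph1a may share reads.

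RefSeq promoter windows (GRCm38.p6, 250 bases before to 50 after the start site, written along the gene's own strand) were at hand for 3 of the 6 genes. They are shown because Car12 and Car14 shared the RPE as their highest cluster while Car4 was highest in ECs. Capitals mark the motifs searched for.
Car14 (chr3:95904636-95904935, minus strand): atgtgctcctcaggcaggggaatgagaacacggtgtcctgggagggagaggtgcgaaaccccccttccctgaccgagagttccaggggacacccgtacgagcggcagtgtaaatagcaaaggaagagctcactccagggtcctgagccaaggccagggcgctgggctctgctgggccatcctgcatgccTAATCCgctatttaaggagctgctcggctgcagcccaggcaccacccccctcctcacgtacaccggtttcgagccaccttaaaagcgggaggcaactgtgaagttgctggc
Car12 (chr9:66713436-66713735, plus strand): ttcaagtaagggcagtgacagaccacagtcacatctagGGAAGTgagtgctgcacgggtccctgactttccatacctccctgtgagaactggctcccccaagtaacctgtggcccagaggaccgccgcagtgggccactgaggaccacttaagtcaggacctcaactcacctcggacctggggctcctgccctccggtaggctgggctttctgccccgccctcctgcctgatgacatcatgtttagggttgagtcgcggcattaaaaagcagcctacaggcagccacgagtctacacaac
Car4 (chr11:84957504-84957803, plus strand): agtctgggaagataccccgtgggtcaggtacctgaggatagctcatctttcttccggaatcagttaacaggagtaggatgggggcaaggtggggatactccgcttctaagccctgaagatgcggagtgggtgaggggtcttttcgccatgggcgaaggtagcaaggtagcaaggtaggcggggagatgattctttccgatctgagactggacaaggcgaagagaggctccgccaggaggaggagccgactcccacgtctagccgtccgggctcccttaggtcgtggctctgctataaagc
The motifs, read on both strands, were the E-box CACGTG, the M-box core CATGTG, the OTX and CRX core TAATCC, the ETS core GGAAGT, the SOX core ACAAAG and the GLI consensus GACCACCCA; none of the printed matches overlapped another. TAATCC stood once in the Car14 window, 61 bases before the start site, and in 7.06% of the 32851 promoters of the same length. The Car12 window held GGAAGT once, as 23.8% of all promoters did, and the Car4 window held none of the 6 motifs. These matches describe letters and are not evidence of binding.

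The scRNAseq libraries held 3637 cells and 17168578 UMIs (B6129PF1/J, median 3881 UMIs per cell) and 3928 cells and 15230413 UMIs (C57BL/6J, median 3174.5), and 22 cell barcodes occurred in both. Cells carried the 13 cluster numbers and cell types given by the authors. With 1 library per strain no test between strains was possible; levels are summed UMIs per 10,000 UMIs of a cluster, and their 95% intervals (exact Poisson for levels, Clopper-Pearson for shares) cover counting error only. The marker lists of the 7 cell classes were highest in their own clusters for 4 of 5 RPE markers and for all markers of the other 6 classes, in both libraries; the exception, Best1, stayed under 0.1 UMIs per 10,000 in every cluster.

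Car14 was the most abundant of the 6 genes in the RPE, and Car12 was highest in the same cells at a lower level. These 2 of the 5 members with at least 100 UMIs in each library were highest in the RPE in both, as were 6.37% of 9664 genes. Car12 reached that minimum only through the RPE, the other clusters together holding 36 and 35 of its UMIs. Car14 reached 15.5 UMIs per 10,000 in the RPE of B6129PF1/J mice (95% interval 15.0 to 15.9) and 17.9 in C57BL/6J mice (17.3 to 18.6). Melanocytes, the pigment cells of the choroid, came next with 5.63 (4.18 to 7.42) and 4.05 (2.92 to 5.47), and their intervals did not overlap those of any other cluster. Outside these pigmented cells the highest Car14 level was in Schwann cell cluster 13, at 0.837 (0.383 to 1.59) and 0.668 (0.288 to 1.32).

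**Figure D1:**
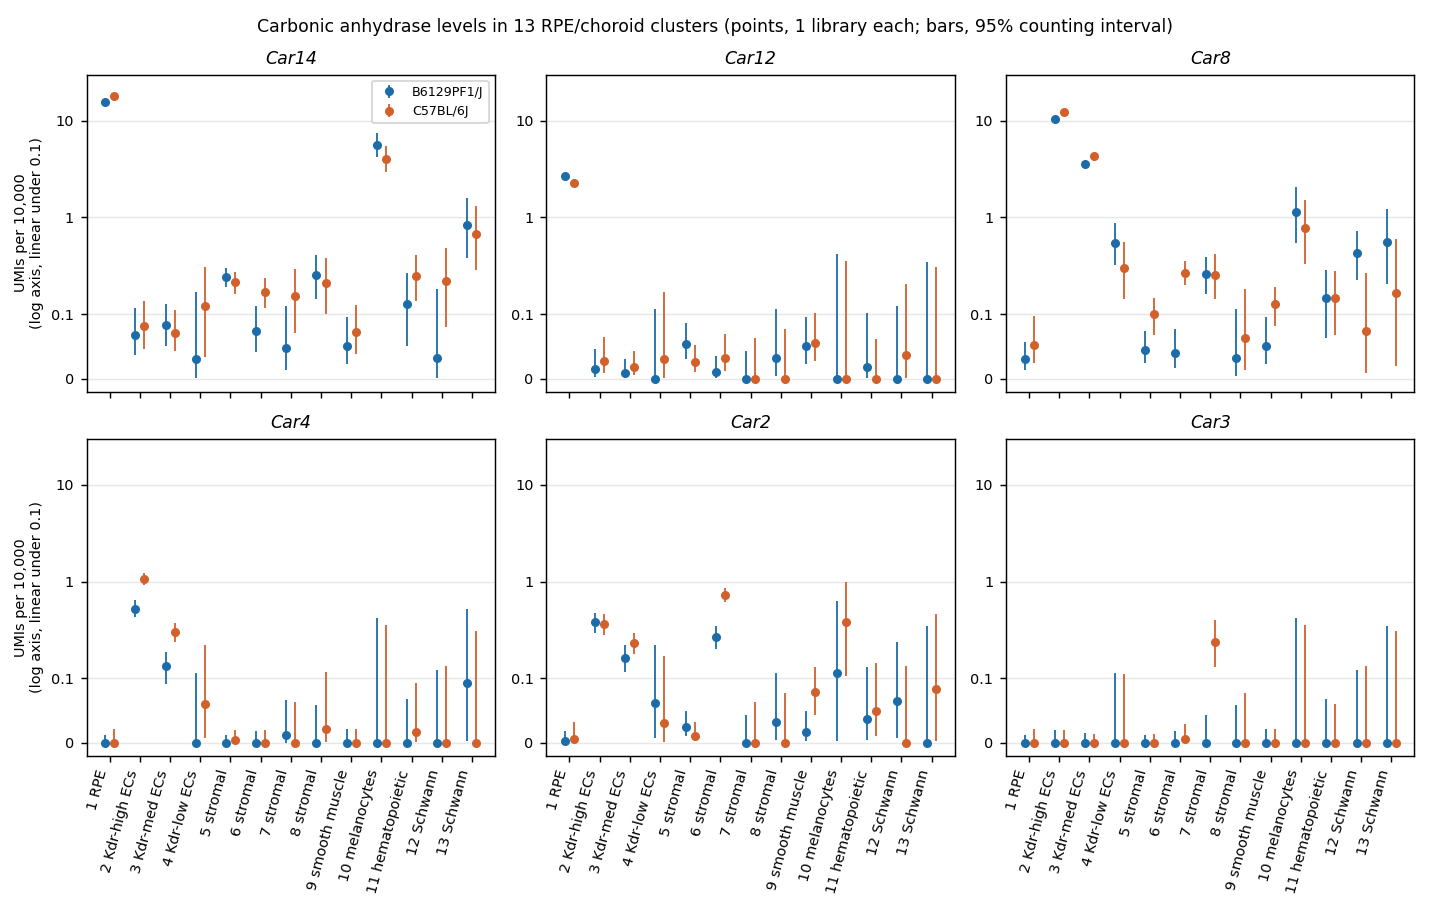
UMIs per 10,000 (log axis, linear under 0.1) of the 6 carbonic anhydrases in the 13 clusters; points are the B6129PF1/J and C57BL/6J libraries and bars are 95% Poisson intervals. Car14 and Car12 peaked in the RPE at 15.5 and 17.9 and at 2.69 and 2.28, Car8 and Car4 peaked in Kdr-high ECs, Car2 was split between ECs and stromal cluster 6, and Car3 had UMIs in the C57BL/6J library only.

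Nearly every RPE cell contributed to the Car14 level. A Car14 UMI was seen in 399 of 407 RPE cells (98.0%) of B6129PF1/J mice and in 367 of 374 (98.1%) of C57BL/6J mice, with a median of 9 and 6 UMIs per cell and a maximum of 71 and 56. In Kdr-high ECs, shown for comparison, 2.70% and 2.73% of cells had a Car14 UMI. Median depths were 4232.5 and 3460 UMIs per cell there, against 5263 and 3406.5 in the RPE. With each cell thinned to 1700 UMIs the RPE shares were 91.6% and 93.3% and the EC shares 0.811% and 1.24%.

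In all, 95.4% of the Car14 UMIs (94.8 to 96.0) and 95.7% of the Car12 UMIs (94.1 to 97.0) of the B6129PF1/J library fell in the RPE, which made up 11.2% of its cells. In the C57BL/6J library these shares were 93.1% (92.2 to 93.9) and 91.9% (89.0 to 94.3). Of the same 5 members, these 2 had 90% or more of their UMIs in the RPE in both libraries; 0.724% of the 9664 genes with that many UMIs did. Car12 met the minimum of 100 UMIs only through the RPE, so for Car12 this is a description. The 90% mark was not kept under every weighting: as shares of the sum of the 13 cluster levels Car14 came to 67.4% and 74.1%, and after thinning to 1700 UMIs per cell Car12 of C57BL/6J mice came to 89.4%.

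Car14 in other clusters was compared with Rpe65, the retinoid isomerase of the RPE, because RNA set free from broken RPE cells would carry both genes in the same ratio. The RPE held 26.7 Car14 UMIs per 100 Rpe65 UMIs in B6129PF1/J mice (25.8 to 27.6) and 30.0 in C57BL/6J mice. In the melanocytes the counts were 50 Car14 to 2 Rpe65 UMIs and 42 to 3, and in Schwann cell cluster 13 they were 9 to 1 and 8 to 1. The 5 RPE markers summed to only 1.69 and 2.02 UMIs per 10,000 in melanocytes, against 333 and 311 in the RPE. Stromal cluster 5 held 73.3 and 65.6 Car14 UMIs per 100 Rpe65 UMIs, with lower bounds of 53.9 and 46.4, so it too lay above the RPE ratio in both libraries. In Kdr-high ECs the ratio was 26.5 and 21.7, within counting error of the RPE ratio.

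**Figure D2:**
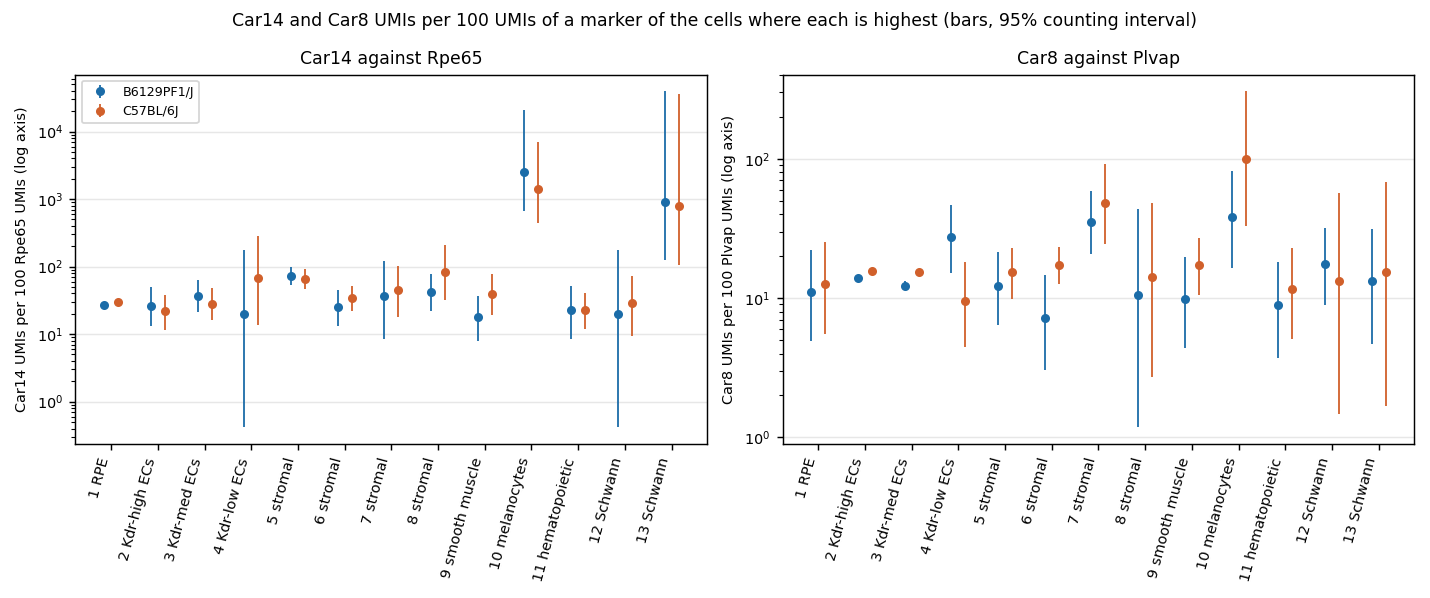
Car14 UMIs per 100 Rpe65 UMIs (left) and Car8 UMIs per 100 Plvap UMIs (right) in each cluster, on log axes, with 95% counting intervals; the points are the 2 libraries. Melanocytes and Schwann cell cluster 13 stood far above the RPE ratio of 26.7 and 30.0 for Car14, while Car8 in most clusters lay near the ratio of Kdr-high ECs of 14.02 and 15.6.

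In melanocytes the Car14 UMIs were spread over 15 of 16 cells of B6129PF1/J mice and 17 of 26 cells of C57BL/6J mice, with at most 8 and 7 in a cell. In Schwann cell cluster 13, 7 of 30 and 7 of 46 cells had a Car14 UMI. Schwann cell cluster 12, in which the 5 Schwann markers summed to 52.0 and 52.3 UMIs per 10,000 against 502 and 391 in cluster 13, had a single Car14-positive cell among 108 in either library. All Car14 UMIs of that cluster, 1 and 6, came from those cells.

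Car12 reached 2.69 UMIs per 10,000 in the RPE of B6129PF1/J mice (2.51 to 2.88) and 2.28 in C57BL/6J mice (2.06 to 2.52), 50.2 and 40.9 times the next level, that of stromal cluster 5 and of smooth muscle cells. A Car12 UMI was seen in 71.7% of RPE cells in the first library and in 54.5% in the second. After thinning to 1700 UMIs per cell these shares came to 33.7% (29.1 to 38.5) and 29.7% (25.1 to 34.6), so that the intervals overlapped. In Kdr-high ECs 0.811% and 0.993% of cells had a Car12 UMI.

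Car12 and Car14 parted in melanocytes, where Car12 had no UMI in either library; at this depth that allows a level of up to 0.338 and 0.289 UMIs per 10,000 (3 counts). Within the RPE both genes were seen in 288 of 407 cells and in 202 of 374 cells. Of the 8 and 7 RPE cells without a Car14 UMI, 4 and 2 had Car12. With so few cells lacking Car14, these counts cannot tell whether Car12 depends on it.

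Partner genes that carry bicarbonate, protons, lactate or water were measured in the same clusters. Of 15 listed partners, 14 had a row in the UMI tables, and 7 reached 1 UMI per 10,000 in a cluster of both libraries. Highest in the RPE of both were Bsg, the chaperone of the monocarboxylate transporters (69.2 and 68.2 UMIs per 10,000), the lactate carriers Slc16a8 (29.9 and 26.2) and Slc16a1 (4.89 and 5.57), the sodium bicarbonate cotransporter Slc4a5 (3.01 and 3.79) and the anion exchanger Slc4a2 (1.85 and 2.01). The anion exchanger Slc4a3 was highest in smooth muscle cells (1.93 and 2.24). The water channel Aqp1 was highest in ECs, at 12.2 in Kdr-high ECs of B6129PF1/J mice and 23.0 in those of C57BL/6J mice, although in B6129PF1/J mice the Kdr-low ECs lay as high (12.5, 11.3 to 13.8).

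Car8 was the highest of the 6 members in Kdr-high and Kdr-med ECs, and its level followed their order by Kdr, the VEGF receptor that gives the 3 EC clusters their names. In B6129PF1/J mice it was 10.4 UMIs per 10,000 in Kdr-high ECs (9.90 to 10.8), 3.54 in Kdr-med ECs (3.30 to 3.78) and 0.550 in Kdr-low ECs (0.326 to 0.869). The C57BL/6J library gave 12.2 (11.7 to 12.7), 4.29 (4.04 to 4.54) and 0.302 (0.145 to 0.556). For Car8 the intervals of neighboring clusters did not overlap in either library. Of the 5 members, Car8 and Car4 were highest in Kdr-high ECs in both libraries, as were 4.95% of 9664 genes. Car4 reached 100 UMIs only through ECs, which held 132 of its 134 and 279 of its 282 UMIs. In all, 3 of the 5 members with at least 100 UMIs in each library (Car2, Car4 and Car8) followed this order in both, as did 12% of the 9664 genes. Kdr-low ECs held only 2 and 1 UMIs of Car2 and 0 and 2 of Car4. In B6129PF1/J mice the Kdr-med and Kdr-low intervals overlapped for both genes. Those of Car2 in Kdr-high and Kdr-med ECs overlapped in C57BL/6J mice.

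A Car8 UMI was seen in 95.7% of Kdr-high ECs of B6129PF1/J mice and in 95.5% of those of C57BL/6J mice, with a median of 4 UMIs per cell in both. The shares were 51.6% and 55.01% in Kdr-med ECs and 15.9% and 9.72% in Kdr-low ECs. Among RPE cells, shown for comparison, 1.72% and 2.41% had a Car8 UMI. All in all 96.6% and 95.8% of Car8 UMIs were in the 3 EC clusters.

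The Car8 UMIs outside ECs were set beside those of Plvap, a protein of the diaphragms of fenestrated capillaries. Kdr-high ECs held 14.02 Car8 UMIs per 100 Plvap UMIs in B6129PF1/J mice and 15.6 in C57BL/6J mice, and the 10 clusters other than ECs, pooled, held 14.1 (11.4 to 17.4) and 17.7 (14.8 to 21.1). Both intervals held the ratio of Kdr-high ECs. Stromal cluster 7 stood above it, with 35.5 (lower bound 20.8) and 48.4 (24.3), and so did melanocytes, with 38.5 (16.6) and 100 (32.7). In B6129PF1/J mice 1 cell held 10 of the 22 Car8 UMIs of cluster 7, whose level was 0.259 UMIs per 10,000 with it and 0.143 without it. Against Kdr in place of Plvap, the B6129PF1/J ratios of cluster 7, 122 (62.6 to 242), and of melanocytes, 143 (49.1 to 442), had intervals that held the 63.0 of Kdr-high ECs, whereas cluster 7 of C57BL/6J mice lay above, at 375 (lower bound 119) against 87.1. The melanocyte values rested on 10 UMIs from 3 of 16 cells in B6129PF1/J mice and on 8 UMIs from 7 of 26 cells in C57BL/6J mice.

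Car4 shared the EC clusters with Car8 but was found in few cells. In Kdr-high ECs it reached 0.525 UMIs per 10,000 in B6129PF1/J mice (0.427 to 0.638) and 1.07 in C57BL/6J mice (0.928 to 1.23). Kdr-med ECs had 0.133 (0.0907 to 0.187) and 0.301 (0.239 to 0.374), and Kdr-low ECs had 0 and 2 UMIs in all. In both libraries 98.5% and 98.9% of the Car4 UMIs lay in ECs. No RPE cell had a Car4 UMI: 0 of 407 cells allows a share of cells with a UMI of up to 0.737%, and 0 of 374 of up to 0.802%; these limits are not on cells that express the gene.

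Only 47 of 370 Kdr-high ECs (12.7%) of B6129PF1/J mice and 69 of 403 (17.1%) of C57BL/6J mice had a Car4 UMI, yet 26 and 44 of them had 2 or more, and the most in a cell was 7 and 11. By contrast, Car2 gave a similar share of Kdr-high ECs, 16.8% and 14.4%, with 2 or more UMIs in only 8 cells of either library. The 5% of Kdr-high ECs with the most Car4 UMIs held 65.0% and 60.2% of them. The same share of cells held 40.3% and 43.9% of the Car2 UMIs and 15.3% and 16.7% of the Car8 UMIs. Such a share depends on the number of UMIs. Kdr-high ECs held 100 and 196 UMIs of Car4, 72 and 66 of Car2 and 1972 and 2228 of Car8.

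**Figure D3:**
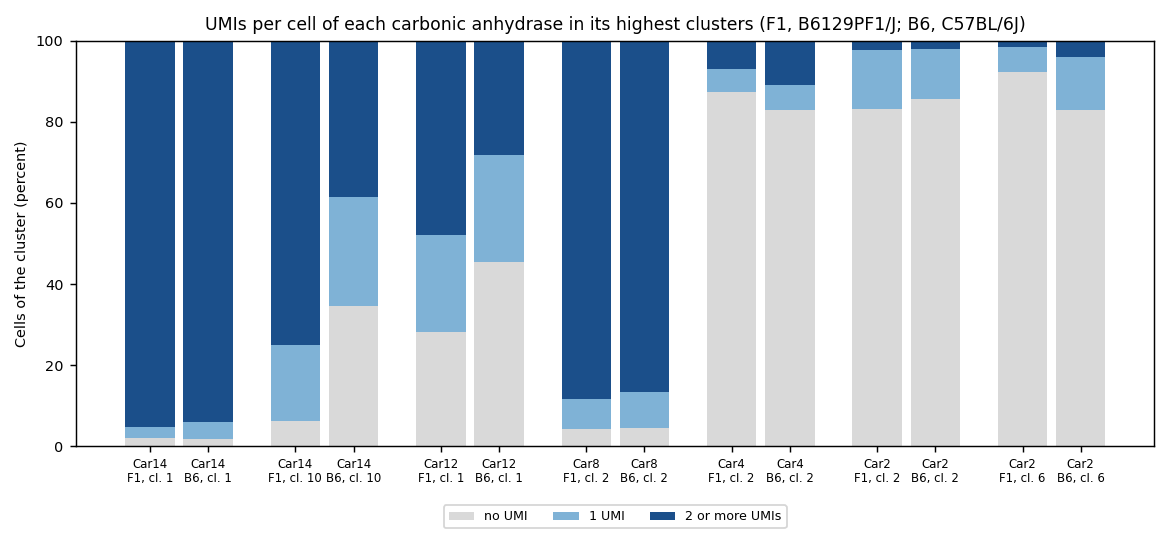
Percent of cells with no UMI, 1 UMI and 2 or more UMIs of a gene in the named cluster, for both libraries. Car14 in the RPE and Car8 in Kdr-high ECs were seen in over 95% of cells, whereas over 80% of the cells of their highest clusters had no UMI of Car4 or Car2.

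Most Car4-positive ECs also held Car8: 46 of 47 in the B6129PF1/J and 66 of 69 in the C57BL/6J Kdr-high ECs. This was near the share of all Kdr-high ECs with a Car8 UMI, 95.7% and 95.5%. Within that cluster, cells with and without Car4 had similar Car8 levels, 9.33 against 10.6 UMIs per 10,000 and 12.5 against 12.1. Car2 was seen in 7 and 8 of the Car4-positive cells (14.9% and 11.6%), against 17.0% and 15.0% of the other Kdr-high ECs.

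Car2, the most widely expressed cytosolic enzyme of the family, was low everywhere and had no single cell type. In Kdr-high ECs its level was alike in both libraries, 0.378 UMIs per 10,000 (0.296 to 0.476) and 0.361 (0.280 to 0.460). In stromal cluster 6 it was 0.269 (0.203 to 0.350) in B6129PF1/J mice and 0.726 (0.610 to 0.858) in C57BL/6J mice. The order of these 2 clusters therefore differed: in the first library they overlapped, and in the second cluster 6 was the higher. RPE cells had 1 Car2 UMI in each library.

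Stromal cluster 6 is rich in Rgs5, a marker of mural cells, which was higher in cells with a Car2 UMI than in those without: 109 (104 to 114) against 94.6 UMIs per 10,000 (93.2 to 96.0) in B6129PF1/J mice and 102 (99.2 to 106) against 90.5 (89.0 to 92.0) in C57BL/6J mice. Acta2, the smooth muscle actin gene, was lower in the cells with Car2 in C57BL/6J mice, 2.37 (1.92 to 2.90) against 5.91 (5.53 to 6.32), but not in B6129PF1/J mice, 9.15 (7.82 to 10.6) against 7.75 (7.36 to 8.16). Of the other mural cell genes compared, Pdgfrb, Kcnj8 and Abcc9 were lower with Car2 in B6129PF1/J mice, while Cspg4 and Des were higher. Each was higher with Car2 in C57BL/6J mice. The intervals of these genes overlapped between the cells with and without Car2 in both libraries. Cells with Car2 were also deeper, with medians of 3991 against 3557 UMIs and 3306 against 2792.5, and the part of depth was not tested. Rgs5 and Acta2 were chosen after their values were seen. Car2 was seen in 42 of 541 cells of cluster 6 (7.76%) and in 103 of 603 (17.1%). Thinned to 1700 UMIs per cell, the shares were 3.88% (2.42 to 5.87) and 10.6% (8.27 to 13.4).

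Car3, an enzyme abundant in fat and skeletal muscle, was nearly absent from these cells. The B6129PF1/J library had no Car3 UMI. The C57BL/6J library had 15, of which 14 were in 3 cells of stromal cluster 7 (10, 3 and 1 UMIs) and 1 in a cell of cluster 6. The 3 cells of cluster 7 held 105 to 439 UMIs of the fibroblast gene Dcn and none of Acta1, Ckm or Plin1, markers of muscle and fat.

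Between the libraries, 28 pairs of a member and a cluster had at least 10 UMIs in 1 of them, and in 8 of these the counting intervals did not overlap. All 8 were higher in C57BL/6J mice. The shares over all genes given below were computed only in the clusters that held these 8 pairs. The count of 8 among 28 therefore has no such share beside it. The interval of the ratio itself is less strict and added pairs of both directions. No share over all genes was computed for this looser rule. Higher in C57BL/6J mice were Car8 (2.29, 1.17 to 4.71) in stromal cluster 5 and Car14 (2.29, 1.21 to 4.56) in stromal cluster 6. So were Car8 (2.53, 1.13 to 6.21) and Car2 (14 UMIs against 3) in smooth muscle cells. Car12 in the RPE was 0.849 times as high in C57BL/6J mice (0.751 to 0.959). Car8 in Schwann cell cluster 12 had 2 UMIs against 13, a ratio with an interval of 0.0189 to 0.763. There 1 B6129PF1/J cell held 8 of the 13 UMIs. The 6 EC markers summed in cluster 12 to 6.14 and 1.06 UMIs per 10,000 in B6129PF1/J and C57BL/6J mice. They summed to 0.844 and 1.25 in stromal cluster 5 and to 1.15 and 1.54 in smooth muscle cells. The 5 RPE markers summed to 2.95 and 3.59 in stromal cluster 6. The part of EC and RPE transcripts in these added pairs was not tested. The 8 were Car14 in the RPE (1.16 times, interval of the ratio 1.11 to 1.21), where 7.24% of all genes tested were apart and 4.28% were apart and higher in C57BL/6J mice, Car8 and Car4 in Kdr-high ECs (1.18, 1.11 to 1.25; 2.04, 1.60 to 2.63), where 7.68% and 4% were, and the same 2 genes in Kdr-med ECs (1.21, 1.11 to 1.33; 2.27, 1.49 to 3.53), where 9.95% and 4.84% were. In stromal cluster 6, where 7.31% were apart and 3.77% apart and higher, Car2 was 2.70 times as high (1.96 to 3.76) and Car8 6.85 times (3.23 to 16.7). The last moved with EC transcripts: the 6 EC markers summed to 0.984 UMIs per 10,000 of that cluster in B6129PF1/J mice and 3.00 in C57BL/6J mice, and their part in the Car8 value was not tested. Car3 in stromal cluster 7, with 5.26% of genes apart and 2.43% apart and higher, completed the 8. Strain and library cannot be told apart here.

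Genes with a pattern over the 13 clusters most like each member were found by Pearson's r of log2(UMIs per 10,000 + 0.1), taking the lower of the 2 libraries' values, among 9663 other genes. The clusters share their libraries and depths, so r is a description. The nearest to Car12 were Otx2os1, a noncoding transcript beside the RPE regulator gene Otx2, Il17re and Sult1c1 (r of at least 0.985, 0.982 and 0.982). Car14 had lower values, with Mif, Fam213a and Fn3k (0.955, 0.938 and 0.930). For Car8 they were Plvap, the lymphatic VEGF receptor Flt4 and the receptor partner Ramp3 (0.938, 0.933 and 0.930), and for Car4 the muscarinic receptor Chrm2, the endothelial tip cell gene Esm1 and Fev (0.961, 0.953 and 0.937). Car2 had no close match, its nearest genes being Gpr182, Arap2 and Inpp5b (0.756, 0.750 and 0.695). Car3 had too few UMIs.

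The deletion of Ihh in ECs asks what the RPE/choroid loses with the Hedgehog ligand of its endothelium. Of the expression values the tables give the authors' average over the 3 libraries of a group and no single libraries, so the values below carry no error and were not tested here. Ihh itself averaged 0.454 FPKM in IhhiΔEC/ΔiEC and 1.53 in Ihh+/+ tissue, and its target Gli1 3.15 and 9.40. A gene was counted as apart where the averages differed by 2-fold or more, as log2(FPKM + 0.1), and the higher of them reached 1 FPKM. This held for 0 of the 6 members and for 1.67% of 11411 genes (1.03% higher and 0.648% lower in the deletion).

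Car14 and Car12 were among the highest genes of the tissue. Car14 averaged 246 FPKM in Ihh+/+ tissue, higher than 99.3% of genes with at least 1 FPKM, and 296 FPKM in IhhiΔEC/ΔiEC tissue, a log2 difference of 0.26. Car12 averaged 88.0 and 107 FPKM, a log2 difference of 0.28. The other 4 members were lower in the deletion. Car8 averaged 4.15 FPKM in Ihh+/+ and 3.23 in IhhiΔEC/ΔiEC tissue (log2 difference -0.35), Car2 1.81 and 1.44 (-0.32), Car3 1.79 and 1.12 (-0.63) and Car4 1.27 and 0.766 (-0.66). The median log2 difference was -0.33 over the members and -0.04 over all genes with at least 1 FPKM.

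**Figure D4:**
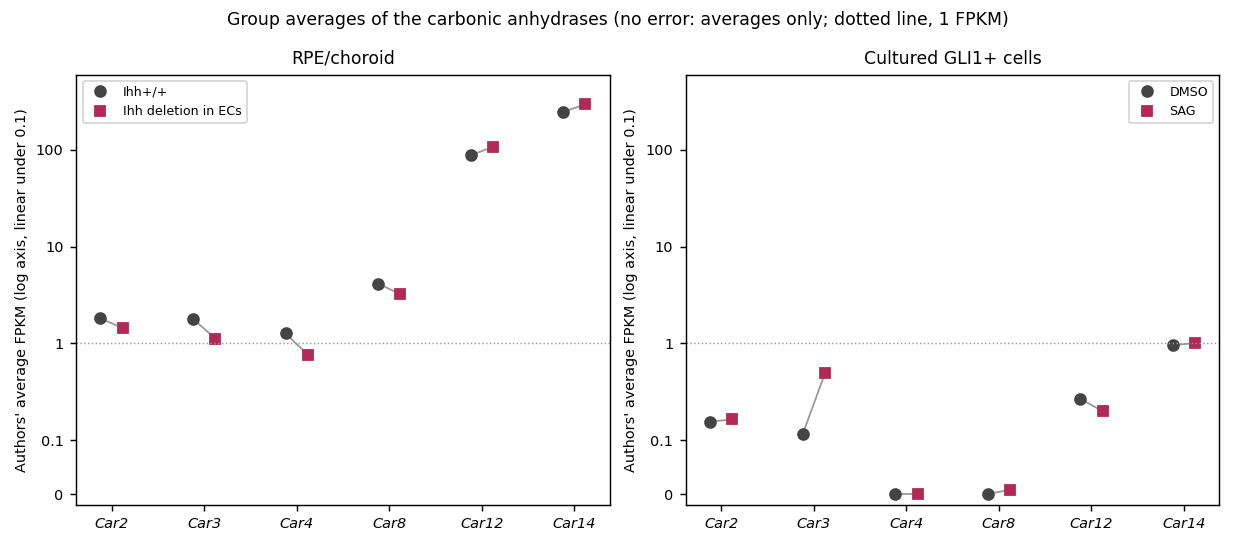
The authors' average FPKM (log axis, linear under 0.1) of the 6 members in RPE/choroid with and without Ihh in ECs (left) and in GLI1+ cells with DMSO or SAG (right); each point is 1 group average, with no error. In RPE/choroid Car14 and Car12 lay at 88.0 to 296 FPKM and the other 4 between 0.766 and 4.15, and in GLI1+ cells only Car14 reached 1 FPKM.

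Markers of the cells that hold each member moved beside these values. All 5 RPE markers were higher in the deletion, with a median log2 difference of 0.26 (0.03 to 0.42), among them Rpe65 with 914 against 682 FPKM. The smallest difference was that of Best1, which stayed under 1 FPKM with 0.574 against 0.561. All 6 EC markers were lower, with a median of -0.26 (-0.31 to -0.02), among them Plvap with 101 against 122 FPKM. The 4 melanocyte markers were lower (median -0.73), as were the 6 stromal markers (-0.67). In bulk tissue fewer cells of a type and less RNA per cell cannot be told apart, and the part of these cell types in the differences of the members was not tested.

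Car3 had nearly no UMIs among the sorted single cells, so its 1.79 and 1.12 FPKM are given beside the markers of the tissues in which it is abundant. The 5 adipocyte markers were all lower in the deletion, summing to 1.04 FPKM against 4.63 in Ihh+/+ tissue. The 5 skeletal muscle markers with a row were all higher, summing to 358 against 273 FPKM, although muscle is no part of RPE/choroid, and Car3 itself was lower. The photoreceptor markers were lower as well (26.8 against 77.5 FPKM, all 5 past 2-fold). Of the 4 Müller glia markers with a row, Glul, Rlbp1 and Aqp4 were higher (Aqp4 with 0.653 against 0.114 FPKM). Dkk3 was lower (80.6 against 92.6). These are not markers of glia alone: among the single cells Rlbp1, also an RPE marker here, was highest in the RPE. Glul was highest in Kdr-low ECs and Dkk3 in melanocytes, in both libraries. The part of fat, muscle, photoreceptors and glia in the levels of Car3 and the other members was not tested.

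All 10 other carbonic anhydrases had a row in these tables, 7 reached 1 FPKM and 0 were 2-fold apart in the deletion. Among them Car11, a further related protein without catalytic activity, averaged 13.2 FPKM in Ihh+/+ and 13.5 in IhhiΔEC/ΔiEC tissue. Car6, the secreted enzyme, averaged 11.7 and 7.10 FPKM, and Car10 2.92 and 3.86. Of 13 partners with a row, 10 reached 1 FPKM and 0 were 2-fold apart, with a median log2 difference of 0.26. Slc4a5, Slc4a2 and Slc16a1, which were highest in the RPE among the single cells, averaged 85.2, 82.8 and 88.5 FPKM in Ihh+/+ and 101, 86.4 and 118 in IhhiΔEC/ΔiEC tissue, and Aqp1 averaged 47.1 and 34.7.

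In GLI1+ cells the SAG comparison asks what Hedgehog signaling changes in the stromal cells that respond to it. Gli1 averaged 0.028 FPKM with DMSO and 3.65 with SAG, and Ptch1, another target, 1.13 and 10.1. The members were low in both groups. Car14 was the only one to reach 1 FPKM, with 0.957 in DMSO and 1.01 in SAG. Car12 averaged 0.268 and 0.199, Car2 0.156 and 0.164, and Car8 was listed at 0 with DMSO and at 0.008 with SAG. Car4 was listed at 0 in both groups. Car3 averaged 0.116 FPKM with DMSO and 0.492 with SAG, a log2 difference of 1.46, but stayed under the 1 FPKM asked for. So 0 of the 6 members were apart by the same rule, against 1.47% of 10325 genes (0.368% higher and 1.1% lower with SAG).

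Other carbonic anhydrases were higher in these cultures. Car13, a cytosolic enzyme, was the highest of the 16 genes at 13.8 FPKM with DMSO and 10.6 with SAG, followed by the mitochondrial Car5b (2.18 and 1.79) and by Car11 (1.26 and 1.08); none of the 10 was apart by the rule, and neither was any of the 13 partners, Aqp1 with 114 and 93.3 FPKM among them. RPE and EC markers were low here, the 5 RPE markers summing to 4.72 and 5.67 FPKM and the 6 EC markers to 0.623 and 0.671, whereas the 6 stromal markers summed to 4184 and 3763.

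Among the 99 genes that the authors listed as enriched in choroidal ECs, Car12 was the only member. Sorted choroidal ECs averaged 2.46 FPKM of it. The averages of the other tissues were 0.103 (neural retina), 0.067 (lung) and 0.002 FPKM (liver), and heart ECs were listed at 0. Car12 stood at rank 73 of the 99 by its choroid average, whose median over the list was 5.16 FPKM. The list was chosen on such differences, and 100% of its genes had a choroid average at least 2 times the highest of the other groups, so the size of the difference is no finding. Car8, seen in nearly all Kdr-high ECs of the scRNAseq libraries, was not on the list, and neither were Car4, Car2, Car3 or Car14; a gene without a row only failed the rule of the list.

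**Figure D5:**
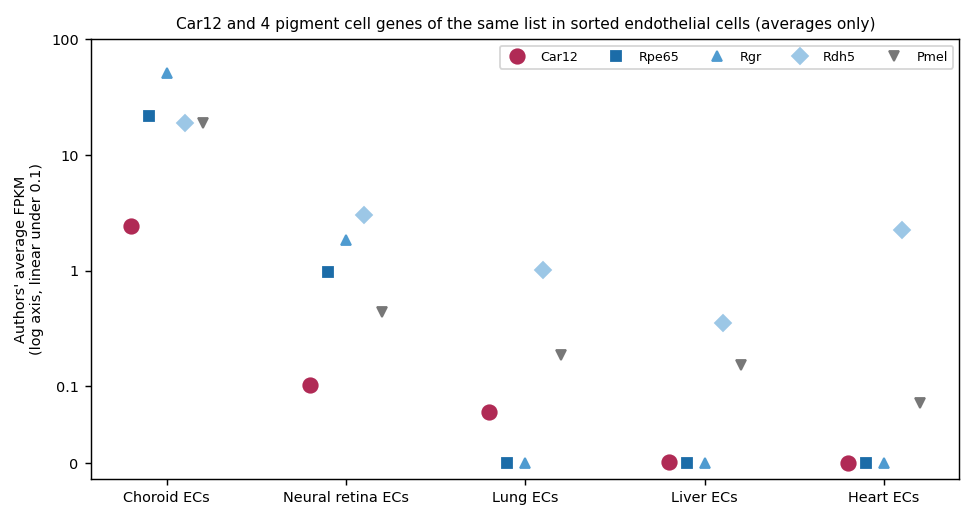
The authors' average FPKM (log axis, linear under 0.1) of Car12, of the RPE genes Rpe65, Rgr and Rdh5 and of the melanocyte gene Pmel in sorted ECs of 5 tissues; each point is a group average, with no error. All 5 genes were highest in the choroid column, Car12 at 2.46 and the others between 18.8 and 50.9 FPKM.

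In the scRNAseq libraries Car12 hardly occurred in ECs: 5 of 842 Car12 UMIs of B6129PF1/J mice (0.594%) and 11 of 434 of C57BL/6J mice (2.53%) fell in the 3 EC clusters. Of the 97 listed genes with a row in the UMI tables, 19 were highest in the RPE in both libraries, 25 in an EC cluster and 5 in melanocytes. The same choroid column held Rpe65 at 21.8 FPKM, Rgr at 50.9, Rdh5 at 18.9 and the melanocyte gene Pmel at 18.8. It had 11.3 Car12 FPKM per 100 Rpe65 FPKM, beside 12.9 in Ihh+/+ and 11.7 in IhhiΔEC/ΔiEC RPE/choroid tissue. This closeness depended on the reference gene. In Ihh+/+ and IhhiΔEC/ΔiEC tissue Rgr averaged 2653 and 3280 FPKM and Rdh5 862 and 1030. Relative to either gene, Car12 was higher in the choroid column than in both tissue groups. Age differed too, 1 month for the other sorted ECs and 6 months for the tissue. The part of RPE transcripts in the Car12 value of the sorted choroidal ECs was not tested, and the libraries behind the choroid column were not analysed here.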

How the data were processed

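The members, gene lists and rules were chosen with earlier results of these data known. The authors obtained the UMI counts with Cell Ranger (mm10), removed cells under 1700 UMIs in Seurat 2.1 and deposited raw counts with cell metadata, whose UMIs per cell equaled the sums of the tables in all cells. The fraction of mitochondrial UMIs per cell, deposited by the authors, was read but not filtered on again. Each deposited FPKM value is a mean taken by the authors across the 3 libraries of a group, after STAR 2.4.0f1 (mm10) and Cufflinks 2.0.2. The authors' fold changes and p-values in these tables (DESeq2 on HTSeq counts), and their cluster averages, were not used.

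Here UMIs were summed per cluster and library (the clusters named ClusterNames_0.8 by the authors) and divided by the cluster's UMIs, with exact 95% Poisson and Clopper-Pearson intervals (scipy 1.17.1), for counting error alone; the limit for a count of 0 was 3 counts. Cells were thinned to 1700 UMIs without leaving any out. No doublet caller was run; cells with UMIs of both Xist and Ddx3y (35 and 33) were left out as an alternative. Genes named were the 6 members, other family and partner genes at 1 UMI per 10,000 in a cluster of both libraries or 1 FPKM in a group, and the 3 genes most like each member (at least 100 UMIs in each library). Other family genes below this level that are named were chosen after their values were seen. Bulk averages were compared as log2(FPKM + 0.1) without a test. The planned fits per library could not be run on averages. Scripts were tested on simulated data.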

Additional observations from a re-analysis of the deposited data

How the results depend on the processing

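The levels in the highest clusters stayed within their counting intervals under all alternatives (means over cells, thinning to 1700 UMIs, without cells with Xist and Ddx3y, without the 5% deepest cells, without the cell with the most UMIs), except Car12 in the RPE of B6129PF1/J mice, 2.95 as a mean over cells, and Car3 in stromal cluster 7, 0.0687 without 1 cell. Shares of UMIs moved with the weighting of clusters. As shares of the sum of the 13 cluster levels, Car14 in the RPE came to 67.4% and 74.1%, Car12 in B6129PF1/J mice to 93.5%, Car8 in Kdr-high ECs to 60.4% and 64.8% and Car2 in stromal cluster 6 of C57BL/6J mice to 37.0%. After thinning, Car14 and Car12 in B6129PF1/J RPE came to 93.3% and 92.3%, Car8 to 73.0% and 66.7%, Car4 in Kdr-high ECs of C57BL/6J mice to 80.4%, and Car2 in cluster 6 to 36.6% and 56.25%. The first of these follows from counting each cluster once whatever its size; the cause of the other shifts was not tested. The genes named as most alike depended on the measure. With a pseudocount of 1, 0 of the 3 were shared for Car2, 1 each for Car4, Car8 and Car14, and 2 for Car12; with Spearman's rho 1 was shared for Car8 and 0 for the others. With no minimum FPKM, 1 member (Car3) was past 2-fold with SAG. The counts of members past 2-fold stayed at 0 under the other pseudocounts, minimums and scaling. No paired analysis was possible because the FPKM values of the bulk tables are group averages, with no single libraries; for the same reason no replicate could be left out. Depth limits Car2, Car3 and Car4, and the 16 and 26 melanocytes limit values there.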

Other observations

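Other family members were highest in other cells. Car7, a cytosolic enzyme known from neurons, was highest in Kdr-low ECs, at 0.672 UMIs per 10,000 (95% interval 0.421 to 1.02) in B6129PF1/J mice and 1.24 (0.889 to 1.68) in C57BL/6J mice, and had 0.0420 and 0.0602 in Kdr-high ECs. This order is the opposite of that of Car8 and Car4, and the intervals of the 2 EC clusters did not overlap in either library. A Car7 UMI was seen in 15 of 63 and 27 of 72 Kdr-low ECs. Car6 had most of its few UMIs in melanocytes, 8 of 9 in B6129PF1/J mice and 9 of 12 in C57BL/6J mice, at 0.901 and 0.867 UMIs per 10,000. In B6129PF1/J mice 1 of the 16 melanocytes held 6 of the 8, and the level without it was 0.247. In the bulk tissue Car6 averaged 7.10 FPKM in IhhiΔEC/ΔiEC and 11.7 in Ihh+/+ mice, beside the melanocyte markers, which summed to 1276 and 2074 FPKM. Car10, a related protein without catalytic activity, had 87 of 93 and 107 of 111 UMIs in the RPE. These 3 genes were chosen after their values were seen.

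Car4-positive cells differed between the EC clusters. In Kdr-high ECs, cells with and without a Car4 UMI had similar Kdr levels (16.0 against 16.5 UMIs per 10,000 in B6129PF1/J and 13.9 against 14.04 in C57BL/6J mice). In Kdr-med ECs the Car4-positive cells had 15.0 against 8.31 and 12.6 against 5.61, and Car8 of 5.17 against 3.39 and 6.28 against 4.08. These 17 and 28 cells were also deeper, with medians of 12667 and 8345.5 UMIs against 4046 and 3341 in the other Kdr-med ECs, and the part of depth in this was not tested.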
